A study of Glycine max with 6 samples.

Results

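Kinesins are motor proteins that use ATP to walk along microtubules, the hollow tubulin filaments of the cytoskeleton. In plants they carry cargo, arrange the microtubules of the cell cortex, and build and steer the spindle and the phragmoplast, the structure that lays down the new cell wall in division. Flowering plants have a large kinesin family, in which some motors serve dividing cells and others serve cells that have stopped dividing. Motor genes were taken from the Gene Ontology (GO) terms that the deposited table assigns: genes with the term for microtubule motor activity or for the kinesin complex and a sum of at least 60 counts over the 6 libraries. Of 45967 genes in the table, 141 held such a term, 12 of them fell below 60 counts and 129 were kept. All 129 held the motor activity term and 114 also held the kinesin complex term. The table calls 128 of the 129 only a hypothetical protein, so members are described by their identifiers and terms.

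Leaves of HN95, a cultivar of soybean (Glycine max) labelled WT, were used, and all plants were under saline-alkaline stress. Pots of 20 kg of soil received 3 L of a solution in which NaCl and Na2CO3 stood at 40 mM each and NaHCO3 and Na2SO4 at 320 mM each. In the MSN group (3 libraries), leaves had been sprayed 7 days earlier with mesoporous silica nanoparticles, which are porous silicon dioxide particles, at 20 mg/L per the protocol. Tags on replicates 1, 2 and 3 give 20, 21 and 22 mg/L instead, and they were kept as 1 group because their titles name 1 treatment. The control group (3 libraries) had the same stress, and the labels do not say whether its leaves received a spray without particles. The labels name 1 batch for all libraries and call the replicates biological. The labels do not say that each library came from its own plant or pot, so the p-values cover no more than the spread among these libraries, which may be technical.

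MSN libraries held 63981150 to 67923813 counts and control libraries 65537749 to 67795796. The share of ribosomal RNA was 0.0934 to 0.126% in 5 libraries and 0.223% in control replicate 2. Motor genes took 0.162 to 0.194% of all counts. Values are CPM, counts scaled to library size with the trimmed mean of M values (TMM). Levels of different genes are compared as FPKM, which also divides by gene length. The spread between replicates depended on level. The median coefficient of variation of members at or above 10 CPM was 4.56% in MSN and 4.62% in control. Below 1 CPM it was 25.4% in MSN and 44.0% in control. The leaf label was checked on 214 genes with the photosynthesis term, of which 200 were tested. All 214 together summed to 53635 to 55908 CPM in MSN and 31098 to 32638 CPM in control.

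More kinesin genes were higher than lower in MSN leaves. Of 127 members tested, 57 were higher (44.9%), against 29.6% of the 39203 genes tested in the whole table, and 15 were lower (11.8%), against 29.7%. The other 55 did not pass (edgeR quasi-likelihood test, Benjamini-Hochberg adjusted p, threshold 0.05). The median log2 fold change was 0.47 over the members and 0.01 over all genes tested. The member median was larger at low levels, 0.94 under 1 CPM and 0.26 at or above 10 CPM. Of the 127 members, 100 had a positive value, against 19735 of the 39203 genes tested. A rise of at least 1 on the log2 scale was called for 22 members, where 9.27% of all genes tested rose that far. A fall of that size was called for 2 members, where 7.01% of all genes tested fell that far. Summed over all members, expression was 1931, 1921 and 1878 CPM in MSN and 1656, 1656 and 1630 CPM in control. The MSN sums lay above the control sums in every library, by 15.9% on the means. MSN and control values did not overlap for 80 members (63.0%), near the 65.0% of all genes tested. In whole leaf pieces, fewer cells of a type and less RNA per cell cannot be told apart.

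**Figure D1:**
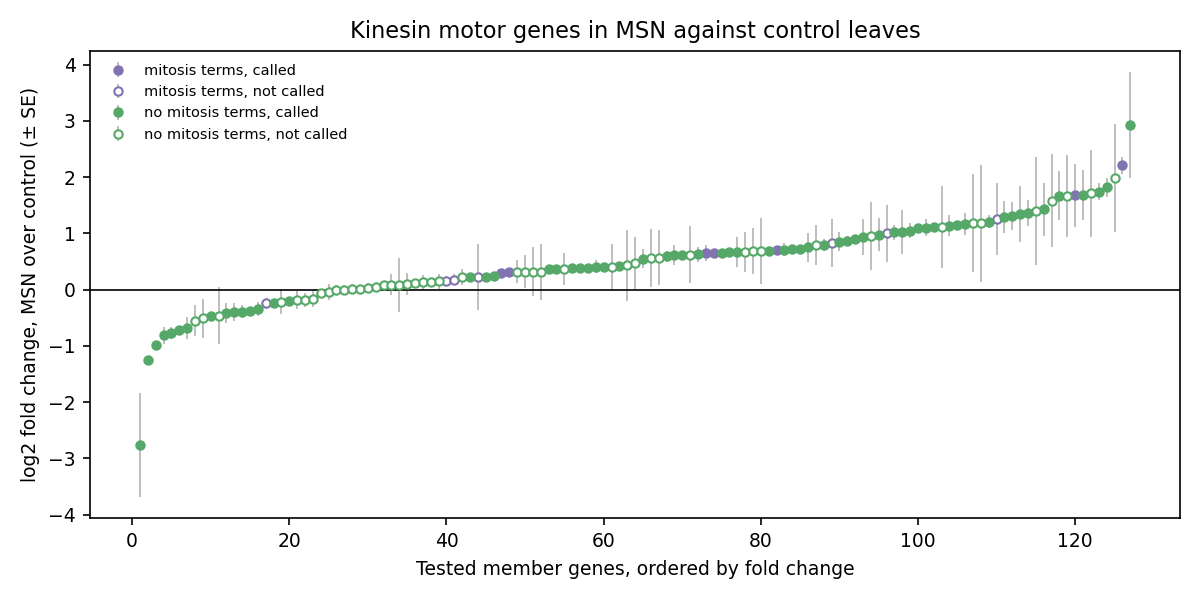
Log2 fold change of the 127 tested kinesin motor genes, MSN over control, ordered from lowest to highest; bars are standard errors, and filled points passed the test. Of the 127, 100 lie above 0, and the long bars belong to members with few counts.

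Members with mitosis terms numbered 14, and none of the 129 held a cytokinesis term. Of the 14, 7 rose in MSN (50%, against 29.6% of all genes tested), 0 fell (against 29.7%) and 7 missed the threshold. One negative value stood near the threshold: GLYMA_04G145200 had an adjusted p of 0.0526 in edgeR, was the 1 member lower at an unadjusted p under 0.05, and was called lower by DESeq2. Their median log2 fold change was 0.65, and 13 had a positive value. They summed to 207, 197 and 198 CPM in MSN and to 150, 151 and 146 CPM in control, which is 34.9% more in MSN. The 115 members without mitosis terms summed to 1724, 1723 and 1679 CPM in MSN and to 1506, 1505 and 1484 CPM in control, or 14.0% more. Of these, 113 were tested, 50 were higher (44.2%), 15 were lower (13.3%), and the median was 0.43. Whether the members with and without mitosis terms differed in their response was not tested. With terms for the spindle, phragmoplast and cell division added, the group grew to 23 members. Of these, 10 were higher (43.5%) and 3 lower (13%).

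The term for mitotic spindle organization covers the arranging of the microtubules that separate chromosomes. What the members with this term do was not tested. The role group with this term, like the later ones, was formed from the terms after values had been seen. Of its 9 members, 6 were higher (66.7%, against 29.6% of all genes tested and 44.9% of all members). None was lower in edgeR, also at an unadjusted p under 0.05, or in DESeq2. The largest rise was that of GLYMA_04G094400 (chromosome 4, 8405926 to 8415894, plus strand). It measured 7.25, 6.98 and 7.27 CPM in MSN and 1.69, 1.54 and 1.43 CPM in control (log2 fold change 2.21, SE 0.15, adjusted p = 2.39e-10). Replicates nearly coincided within each group, and the groups lay far apart. Its level was still modest, 1.44 FPKM in MSN and 0.311 FPKM in control. GLYMA_14G085200 (chromosome 14, 7527027 to 7539795, plus strand) measured 35.5, 34.5 and 33.3 CPM in MSN and 21.6, 22.2 and 19.6 CPM in control (0.70, SE 0.06, adjusted p = 1.39e-08). GLYMA_17G169400 (chromosome 17, 15711815 to 15724593, minus strand) measured 34.6, 37.9 and 37.2 CPM in MSN and 23.9, 23.1 and 22.9 CPM in control (0.65, SE 0.06, adjusted p = 1.49e-08). These genes had similar levels and similar rises. Separate groups were a condition of the rule that named them and GLYMA_04G094400, so the lack of overlap is no added result.

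Other members of the same group follow. GLYMA_02G214300 (chromosome 2, 40041026 to 40049944, plus strand) measured 7.94, 6.57 and 6.83 CPM in MSN and 4.15, 5.16 and 4.24 CPM in control (0.65, SE 0.14, adjusted p = 4.57e-04). GLYMA_17G239500 (chromosome 17, 39495438 to 39511517, minus strand) measured 29.0, 30.1 and 32.5 CPM in MSN and 26.3, 22.8 and 24.3 CPM in control (0.32, SE 0.07, adjusted p = 4.08e-04). In both genes the lowest MSN library stood above the highest control library, as the rule that named them required. GLYMA_04G041300 was the most abundant of the 14 by CPM, with 52.5, 42.4 and 45.2 CPM in MSN and 38.0, 38.3 and 38.2 CPM in control (0.29, SE 0.06, adjusted p = 0.000672). The other 3 members with the term for mitotic spindle organization had positive values that did not pass. These were 0.16 for GLYMA_05G085400, 0.18 for GLYMA_06G042400 and 0.83 for GLYMA_14G181800.

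The remaining 5 members with mitosis terms had lower counts or smaller differences. The terms for mitotic sister chromatid segregation, the spindle midzone, astral microtubules and microtubule depolymerization all named the same 3 genes, and none of these passed in edgeR, where 0 had an unadjusted p under 0.05 in the higher direction and 1 in the lower. GLYMA_04G145200 measured 9.24, 10.5 and 8.84 CPM in MSN and 11.0, 11.7 and 11.0 CPM in control (-0.24), the one negative value of the 14. GLYMA_05G014900 and GLYMA_17G123400 were below 1 CPM in every library. Of 2 members annotated to regulation of mitotic spindle assembly, GLYMA_12G191000 was higher (chromosome 12, 35258247 to 35267950, minus strand). It had 57, 20 and 31 counts in MSN and 10, 13 and 11 in control (log2 fold change 1.68, SE 0.56, adjusted p = 0.0154). Replicate 1 stood well above the other MSN libraries, and without it the value was 1.18 with an adjusted p of 0.160. Over all alternatives its adjusted p ran from 0.00505 to 0.16. The other member, GLYMA_13G310700, was at 0.891, 0.265 and 0.753 CPM in MSN and 0.292, 0.336 and 0.319 CPM in control and did not pass (adjusted p = 0.0930).

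**Figure D2:**
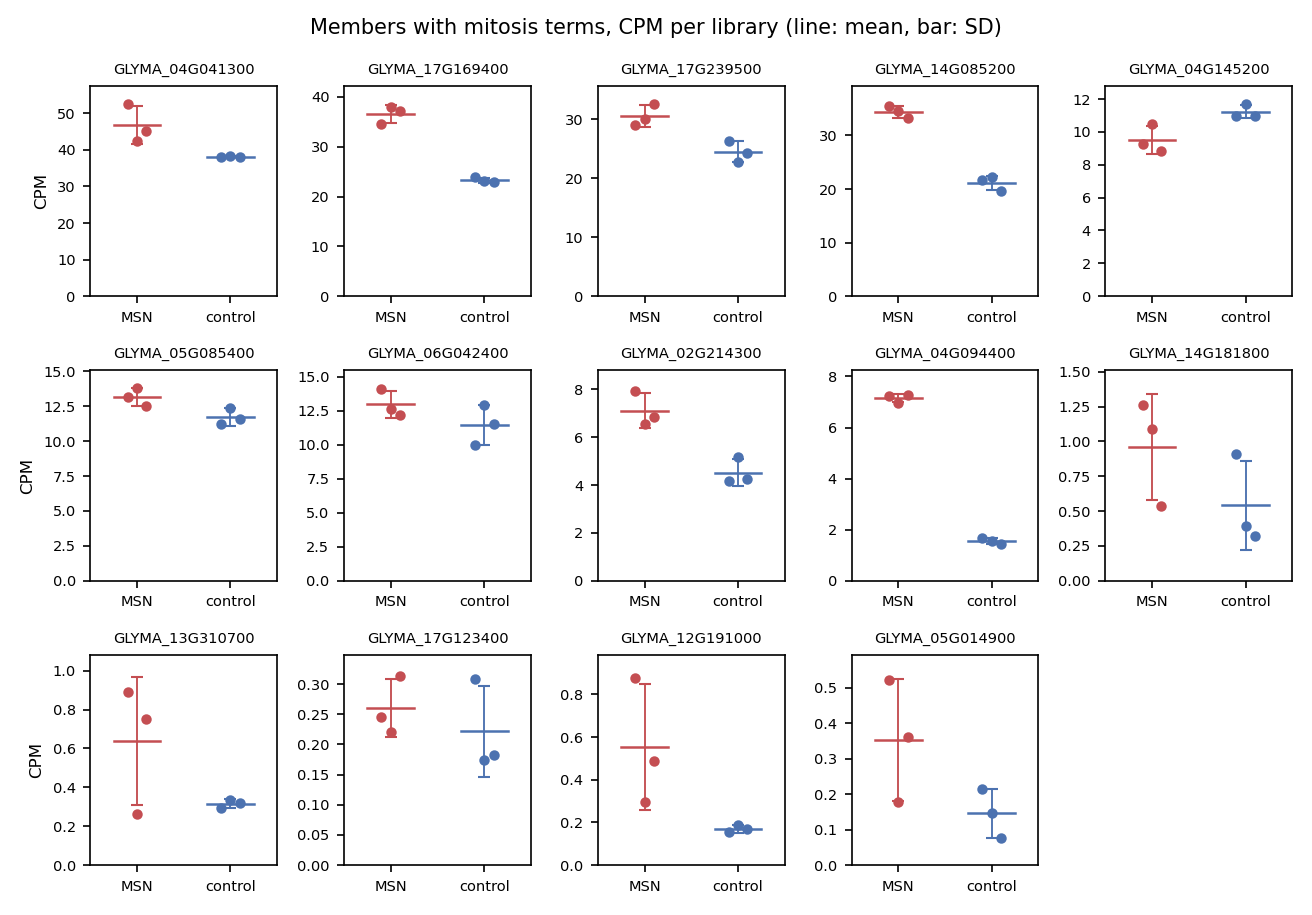
CPM in each library for the 14 members with mitosis terms, MSN left and control right in each panel; lines are means and bars SD over 3 libraries, and panels run from the highest to the lowest mean FPKM. GLYMA_04G094400 has the largest fold change, and GLYMA_04G145200 has a lower MSN mean.

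Values of other genes for dividing cells stood beside these. Among 264 tested genes with terms for the mitotic cell cycle or cell division and no motor term, 86 were higher (32.6%, near the 29.6% of all genes tested) and 61 lower (23.1%, against 29.7%), with a median of 0.16. They summed to 6874 to 7037 CPM in MSN and 6780 to 6995 CPM in control, so the groups overlapped. The list shares 41 genes with the tubulins, a list defined by the term for structural constituent of the cytoskeleton. Without tubulins, 71 of 226 tested were higher (31.4%) and 50 lower (22.1%). The sum over all 240 genes was then 3788 to 3831 CPM in MSN and 3803 to 3839 CPM in control. Cyclins and cyclin-dependent kinase complexes are the enzymes that drive the cell cycle. Of 119 such genes tested, 45 were higher (37.8%) and 26 lower (21.8%), with a median of 0.32. This list shares 84 genes with the mitotic list. Genes with the nucleosome term, which histones carry, were higher in 49 of 100 (49%) and lower in 13 (13%), with a median of 0.28. DNA replication genes were higher in 33 of 156 (21.2%) and lower in 30 (19.2%), both under the shares of all genes tested, with a median of 0.05. For cytokinesis 8 of 18 were higher (44.4%) and 4 lower (22.2%). For the spindle, phragmoplast and preprophase band 30 of 98 were higher (30.6%) and 18 lower (18.4%). The part of cell division in the motor values was not tested.

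A kinesin of the phragmoplast was the only member with a name of its own in the table. GLYMA_17G038700 is described as Phragmoplast orienting kinesin 1 by projection from Arabidopsis, where that motor helps guide the phragmoplast to its place at the cell cortex. It holds no mitosis or cytokinesis term here and lies on chromosome 17, 2861665 to 2874082, plus strand. It measured 1.15, 1.25 and 1.48 CPM in MSN and 0.538, 0.731 and 0.698 CPM in control (0.98, SE 0.29, adjusted p = 0.00816). Its groups did not overlap, at a low level of 0.163 FPKM in MSN and 0.0824 FPKM in control.

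The role groups that follow were formed from the terms after values had been seen and are given as descriptions. All 4 members with the term for chloroplast accumulation movement were higher, where 29.6% of all genes tested were. In Arabidopsis, kinesin-like proteins of this kind act in the movement of chloroplasts towards weak light, which runs on actin filaments. GLYMA_02G041400 (chromosome 2, 3873123 to 3892882, minus strand) measured 79.8, 85.0 and 78.4 CPM in MSN and 58.8, 62.9 and 60.6 CPM in control (0.42, SE 0.05, adjusted p = 3.19e-07). GLYMA_18G146600 (chromosome 18, 24803534 to 24824922, minus strand) measured 39.1, 36.3 and 38.2 CPM in MSN and 25.6, 22.8 and 22.8 CPM in control (0.67, SE 0.06, adjusted p = 2.02e-08). These are among the better expressed motors, and their groups lay clearly apart. GLYMA_01G023600 measured 47.3, 41.9 and 39.4 CPM in MSN and 31.5, 33.2 and 35.7 CPM in control (0.36, SE 0.07, adjusted p = 1.36e-04). GLYMA_08G279800 measured 18.8, 18.8 and 16.1 CPM in MSN and 11.6, 13.3 and 10.8 CPM in control (0.59, SE 0.09, adjusted p = 1.83e-05). In all 4 genes every MSN library was above every control library. Of all genes tested, 65.0% had groups that did not overlap, in either direction. The 4 genes summed to 172 to 185 CPM in MSN and 127 to 132 CPM in control. Photosynthesis genes moved the same way in these leaves: of 200 tested, 153 were higher and 15 lower, with a median of 0.60. Their part in the values of these 4 motors was not tested.

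Motors with the term for cytoskeleton-dependent intracellular transport, the hauling of vesicles and organelles, were called in both directions, no more often than all genes tested. Of 12 tested, 3 were higher (25%, against 29.6%), 2 lower (16.7%, against 29.7%) and 7 not called, with a median of 0.09. GLYMA_15G256400 (chromosome 15, 48553974 to 48559510, minus strand) had the largest well-measured fall of any member. It measured 12.0, 11.8 and 10.8 CPM in MSN and 26.0, 28.2 and 28.0 CPM in control (log2 fold change -1.25, SE 0.07, adjusted p = 2.41e-11). GLYMA_01G213200 was also lower, at 15.3, 15.7 and 16.7 CPM in MSN and 19.1, 22.4 and 20.4 CPM in control (-0.38, SE 0.07, adjusted p = 2.95e-04). The higher ones were less abundant. GLYMA_01G144500 measured 8.61, 8.19 and 7.49 CPM in MSN and 3.85, 3.98 and 4.18 CPM in control (1.02, SE 0.13, adjusted p = 1.30e-06). GLYMA_03G022500 measured 6.06, 5.07 and 5.27 CPM in MSN and 2.49, 2.31 and 2.87 CPM in control (1.10, SE 0.15, adjusted p = 4.90e-06). GLYMA_03G237800 rose by 0.85 on the log2 scale (SE 0.17, adjusted p = 3.29e-04). The group as a whole summed to 108 to 116 CPM in MSN and 121 to 122 CPM in control. GLYMA_01G144500, GLYMA_01G213200 and GLYMA_03G022500 also hold terms for root development and regulation of microtubule-based processes, as does GLYMA_11G028700, which rose by 0.63 (SE 0.13, adjusted p = 2.80e-04).

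**Figure D3:**
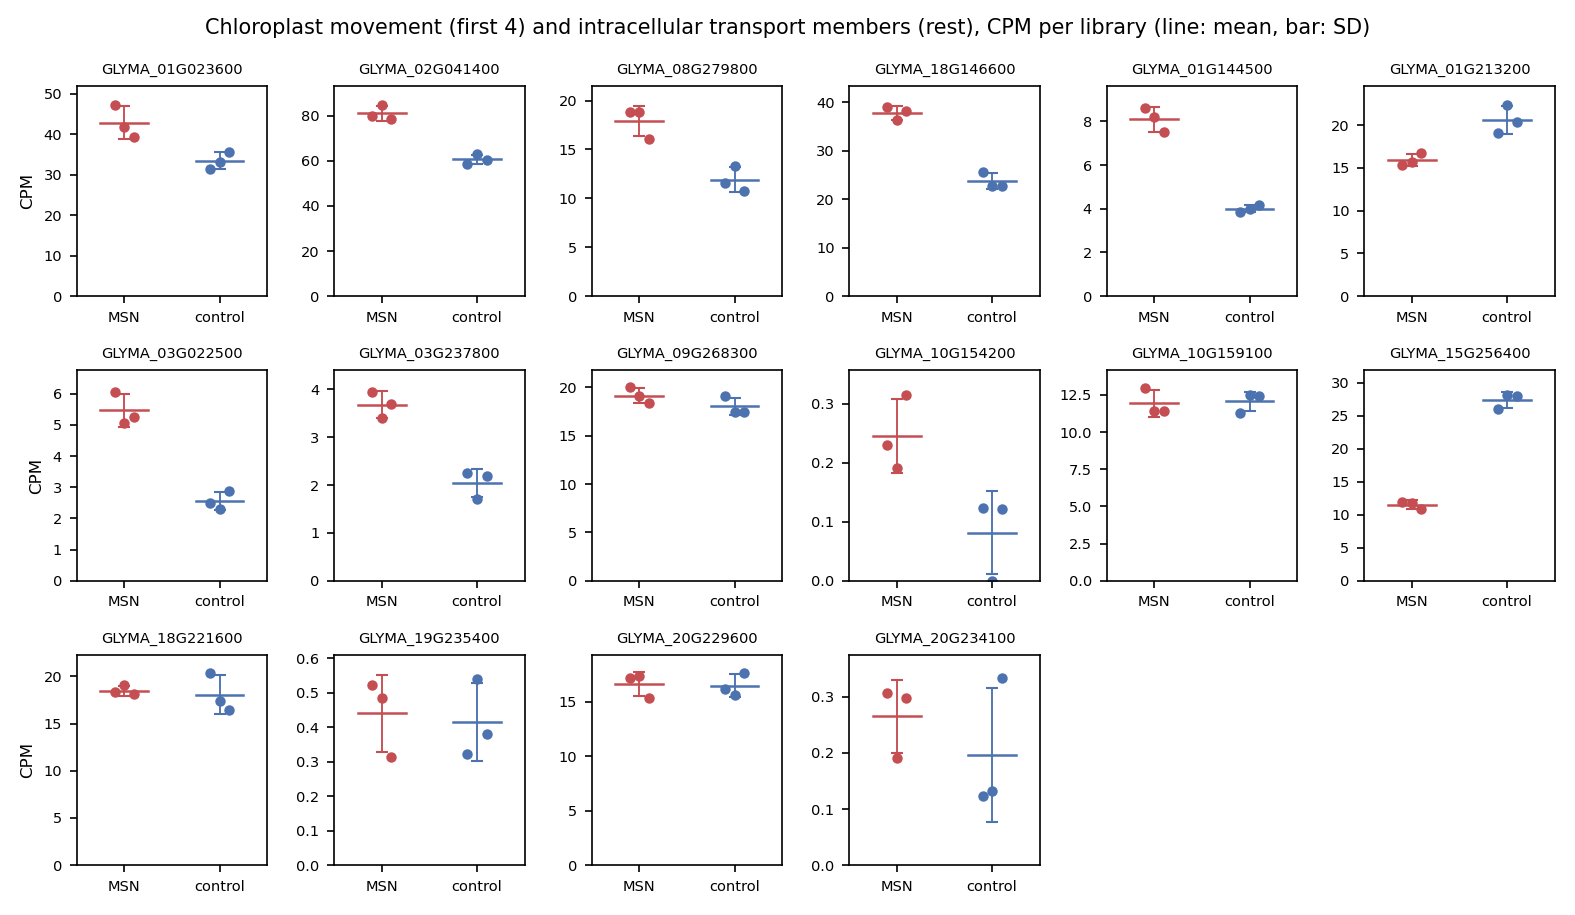
CPM in each library for the 4 chloroplast movement members (first 4 panels) and the 12 intracellular transport members, MSN left and control right; lines are means and bars SD over 3 libraries. The first 4 panels all show MSN above control, and GLYMA_15G256400 shows the reverse, at 12.0, 11.8 and 10.8 CPM in MSN and 26.0, 28.2 and 28.0 CPM in control.

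Plus-end-directed motors walk towards the growing end of the microtubule, and many carry cargo outward or push spindle fibres apart. Of 36 tested members with that term, 14 were higher (38.9%, against 29.6% of all genes tested and 44.9% of all members). Only 2 were lower (5.56%, against 29.7% and 11.8%) and 20 were not called. The median over the 36 was 0.68. GLYMA_10G104800 (chromosome 10, 23045643 to 23050849, minus strand), which also holds a guanyl-nucleotide exchange factor term, measured 5.88, 5.70 and 4.25 CPM in MSN and 1.62, 1.42 and 1.46 CPM in control (1.82, SE 0.17, adjusted p = 3.90e-08). GLYMA_10G045500 (chromosome 10, 4042401 to 4052283, minus strand) measured 0.860, 0.707 and 0.691 CPM in MSN and 0.185, 0.263 and 0.258 CPM in control (1.67, SE 0.44, adjusted p = 3.37e-03). Both genes had no overlap between groups, as the rule that named them required. Both lower members of this group also hold the transport term and are described above.

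Members annotated to spindle assembly, without the word mitotic in the term, had shares near those of all genes tested: 3 of 9 were higher (33.3%, against 29.6%) and 3 lower (33.3%, against 29.7%). Their single values follow. GLYMA_12G215200 measured 11.9, 13.3 and 12.6 CPM in MSN and 5.34, 4.81 and 6.18 CPM in control (1.21, SE 0.12, adjusted p = 4.90e-08). GLYMA_13G286400 rose by 0.39 (SE 0.07) and GLYMA_15G063200, below 1 CPM, by 1.35 (SE 0.50, adjusted p = 0.0260). GLYMA_12G136600 (chromosome 12, 16064955 to 16071276, minus strand) measured 3.98, 4.52 and 5.81 CPM in MSN and 9.60, 7.46 and 7.99 CPM in control (-0.81, SE 0.15, adjusted p = 1.39e-04). GLYMA_06G266500 measured 9.81, 8.10 and 7.64 CPM in MSN and 14.9, 14.9 and 13.8 CPM in control (-0.77, SE 0.10, adjusted p = 3.60e-06). These 4 genes above 3 CPM showed separate groups, in opposite directions, as did 65.0% of all genes tested in either direction. For GLYMA_12G136600 separate groups were a condition of the rule that named it.

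The third lower gene of the spindle assembly group, GLYMA_10G096900 (chromosome 10, 16184514 to 16186435, minus strand), rested on few counts: 0, 0 and 12 in MSN and 40, 15 and 30 in control. Small counts pile up at 4 and 8 in these libraries, so 1 counting event was taken as 4 counts. On that basis the ratio of MSN to control was 0.143, with an exact 95% interval of 0.0277 to 0.485 that covers counting error only. The edgeR adjusted p was 0.0152 and ran from 0.000505 to 0.22 over the alternatives that tested the gene, which leave out counts divided by 4. DESeq2 gave 0.220, and leaving out MSN replicate 1, MSN replicate 2 or control replicate 1 gave 0.0723, 0.0763 and 0.0712.

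Other large rises among members without mitosis terms belonged to genes that hold only the general motor terms. GLYMA_10G016000 (chromosome 10, 1437257 to 1443458, plus strand) measured 14.6, 10.7 and 12.7 CPM in MSN and 3.46, 4.65 and 3.25 CPM in control (1.74, SE 0.15, adjusted p = 9.05e-09). GLYMA_08G041200 (chromosome 8, 3263235 to 3270307, plus strand) measured 3.27, 3.83 and 2.98 CPM in MSN and 1.28, 0.848 and 1.78 CPM in control (1.37, SE 0.23, adjusted p = 5.27e-05). GLYMA_15G252800 (chromosome 15, 48114283 to 48119674, minus strand) measured 1.34, 0.869 and 1.15 CPM in MSN and 0.600, 0.322 and 0.121 CPM in control (1.68, SE 0.45, adjusted p = 3.47e-03).

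The largest fitted rise, that of GLYMA_09G136400 (chromosome 9, 33835888 to 33841126, minus strand), rested on 15, 23 and 24 counts in MSN and 0, 8 and 0 in control. The ratio of MSN to control was 7.86, with an exact 95% interval of 1.91 to 72.7 on events of 4 counts. The edgeR adjusted p was 0.0120 and ran from 0.000617 to 0.0647 over the alternatives that tested the gene, which leave out counts divided by 4. Leaving out MSN replicate 3 or control replicate 3 gave 0.0522 and 0.0541. Every MSN library held more counts than any control library, and separate groups were a condition of the rule that named the gene. The gene reached the minimum of 60 counts through its MSN libraries, 62 of 70 counts, so a high ratio was favoured by the choice of members and is given as a description.

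A pair of well expressed members, picked out after their values were seen, showed a near equal and tightly measured rise. GLYMA_01G168200 (chromosome 1, 50582822 to 50590835, minus strand) measured 59.9, 58.9 and 58.9 CPM in MSN and 26.9, 26.4 and 27.0 CPM in control (1.15, SE 0.05, adjusted p = 2.81e-13). GLYMA_11G075100 (chromosome 11, 5606833 to 5615672, plus strand) measured 60.3, 59.9 and 57.9 CPM in MSN and 27.4, 27.2 and 27.4 CPM in control (1.12, SE 0.05, adjusted p = 4.40e-13). Replicates differed by no more than a few percent, while the groups differed by more than the whole control level. How reads shared by near-identical gene copies were counted is unknown here, so values of such pairs may not be independent. GLYMA_08G205700 rose by 1.09 (SE 0.07, adjusted p = 6.71e-11), GLYMA_12G038600 by 0.90 (SE 0.06, adjusted p = 6.91e-10) and GLYMA_11G112700 by 0.73 (SE 0.05, adjusted p = 1.58e-10).

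Kinesin transcripts were scarce in these leaves. Their median level was 1.36 FPKM over the 6 libraries, against 4.54 FPKM over all genes tested. Levels ran from 0.0315 to 26.2 FPKM, 60 of 129 members were under 1 FPKM, and the 10 members with the most CPM held 36.5% of the summed CPM. The most abundant member per length was GLYMA_07G246800, at 26.6 ± 1.36 FPKM in MSN and 25.7 ± 0.231 FPKM in control (SD, n = 3 each). It measured 91.8, 95.3 and 86.8 CPM in MSN and 87.8, 88.3 and 88.4 CPM in control, and the groups overlapped (0.05, SE 0.04, adjusted p = 0.329).

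The next most abundant motors moved in both directions. GLYMA_06G009000 (chromosome 6, 699066 to 713017, plus strand) fell to 53.4, 54.3 and 53.1 CPM in MSN, against 110, 107 and 101 CPM in control (-0.99, SE 0.04, adjusted p = 8.74e-13). Per length it stood at 12.0 FPKM in MSN and 23.6 FPKM in control, so in control it was second in level only to GLYMA_07G246800. GLYMA_12G037100 measured 53.1, 51.1 and 48.4 CPM in MSN and 82.5, 83.0 and 83.6 CPM in control (-0.71, SE 0.05, adjusted p = 1.53e-10). GLYMA_17G027200 measured 58.2, 68.5 and 60.7 CPM in MSN and 73.6, 70.9 and 73.0 CPM in control (-0.21, SE 0.05, adjusted p = 2.12e-03). Each of these had all MSN libraries below all control libraries, where 65.0% of all genes tested had separate groups in either direction. For GLYMA_06G009000 this was also a condition of its naming among the largest falls. GLYMA_13G358700 was higher, with 56.9, 56.5 and 61.0 CPM in MSN and 47.4, 44.3 and 43.9 CPM in control (0.36, SE 0.05, adjusted p = 4.55e-06). So was the plus-end-directed GLYMA_13G330600, with 76.0, 67.6 and 73.8 CPM in MSN and 62.7, 60.3 and 62.2 CPM in control (0.23, SE 0.05, adjusted p = 4.56e-04).

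The sum over the top of the level order ran against the sum over all members. The 6 members of highest FPKM summed to 384 to 393 CPM in MSN and 452 to 464 CPM in control. The top 10 summed to 625 to 645 CPM in MSN and 659 to 668 CPM in control, with 4 higher and 4 lower. The top 20 summed to 1009 to 1039 CPM in MSN and 965 to 974 CPM in control, with 11 higher and 6 lower. The running sum was thus lower in MSN over the top 10 and higher in MSN over the top 20.

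**Figure D4:**
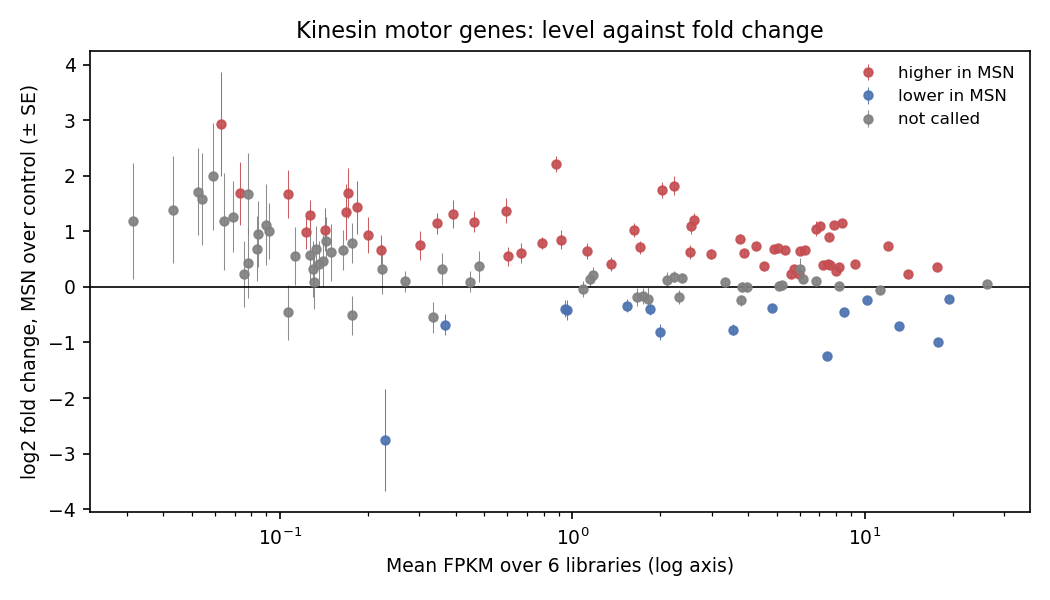
Log2 fold change, MSN over control, against mean FPKM over the 6 libraries (log axis) for the 127 tested members; bars are standard errors. Calls in both directions occur at the top of the level range, and most members under 1 FPKM have wide bars and did not pass or were higher.

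More members were higher than lower in each band of mean CPM, where bands were set after the data were seen. Under 10 CPM, all genes tested also had more higher than lower. Under 1 CPM, the higher share of members was near that of all genes tested. At or above 10 CPM, 27 of 48 members were higher (56.2%) and 8 lower (16.7%), against 31.4% higher and 40.5% lower of 19887 genes. From 1 to 10 CPM, 21 of 41 were higher (51.2%) and 6 lower (14.6%), against 32.1% and 22.9% of 12690 genes. Under 1 CPM, 9 of 38 were higher (23.7%) and 1 lower (2.63%), against 19.3% and 10.6% of 6626 genes. From the highest band to the lowest, the member medians were 0.26, 0.41 and 0.94. Those of all genes tested were -0.06, 0.08 and 0.27. The 57 higher members had a median log2 fold change of 0.75 and a median level of 2.54 FPKM. The 15 lower members had a median of -0.46 and 3.55 FPKM. The 55 that did not pass had a median of 0.23 and only 0.223 FPKM, with a median SE of 0.35 against 0.12 in the higher members.

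The members also differed in their other terms and in position. Of 15 tested members without the kinesin complex term, 8 were higher (53.3%, against 29.6% of all genes tested) and 0 lower (against 29.7%). Their median was 0.63, and 0 were lower also in DESeq2 and in edgeR at an unadjusted p under 0.05. Of 112 with the term, 49 were higher (43.8%) and 15 lower (13.4%), with a median of 0.41. Of 3 members with an oxidoreductase term, GLYMA_01G155300 rose by 0.39 and GLYMA_09G194900 by 0.38, and GLYMA_11G089400 was at 0.15 (adjusted p = 0.358). The only member with a protein kinase term, GLYMA_03G134900, did not pass. Members lay on 20 chromosomes, from 3 genes each on chromosomes 16 and 20 to 10 on chromosome 17, and 62 of 129 were on the plus strand. Their genes spanned 889 to 38015 bp, with a median of 7323 bp.

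Members that lie close together did not always move together. GLYMA_06G008000 and GLYMA_06G009000, with 7 genes between them, were at 0.55 and -0.99 on the log2 scale, and both passed. GLYMA_12G037100 and GLYMA_12G038600, with 11 genes between them, were at -0.71 and 0.90, and both passed. The only directly adjacent members, GLYMA_17G208300 and GLYMA_17G208400, were at 0.32 (adjusted p = 0.188) and 0.41 (adjusted p = 8.72e-03).

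Of the 129 members, 2 did not pass the edgeR filter, which asks for a minimum level in at least 3 libraries. Both reached the 60 counts mainly through the MSN libraries, so their ratios are a description and support no difference. GLYMA_10G182800 had 50 counts in MSN and 12 in control over the 3 libraries of each group, a ratio of 4.22 with an exact 95% interval of 1.09 to 22.4. GLYMA_16G181900 had 63 in MSN and 3 in control, a ratio of 21.3 with an interval of 2.52 to 680. Just above the minimum of 60 stood GLYMA_08G106400, with 42 counts in MSN and 19 in control. Just below it stood GLYMA_18G180900, with 58 in MSN and 0 in control, and GLYMA_08G170500, with 42 in MSN and 13 in control.

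Counts for other genes of the cytoskeleton are set here beside the shares over all genes tested, 29.6% higher and 29.7% lower. The tubulin list held genes with the term for structural constituent of the cytoskeleton. Of 49 tested, 17 were higher (34.7%) and 18 lower (36.7%), with a median of -0.05. The list summed to 3348 to 3506 CPM in MSN and 3448 to 3622 CPM in control. Microtubule binding genes without motor terms were higher in 37 (24.8%) and lower in 43 (28.9%) of 149 (median 0.07), at 3172 to 3253 CPM in MSN and 3538 to 3643 CPM in control. Nucleation and gamma-tubulin genes, which start new microtubules, were higher in 5 and lower in 3 of 15. This list shares 9 genes with the tubulin list. Severing genes, which cut microtubules, were higher in 3 and lower in 2 of 10. Genes with dynein terms, which name parts of a minus-end-directed motor of other organisms, were higher in 5 (22.7%) and lower in 10 (45.5%) of 22 (median -0.33), at 106 to 112 CPM in MSN and 149 to 154 CPM in control. Myosins, the motors of actin filaments, were higher in 12 (40.0%) and lower in 8 (26.7%) of 30 (median 0.06). No difference between these lists and the kinesins was tested.

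**Figure D5:**
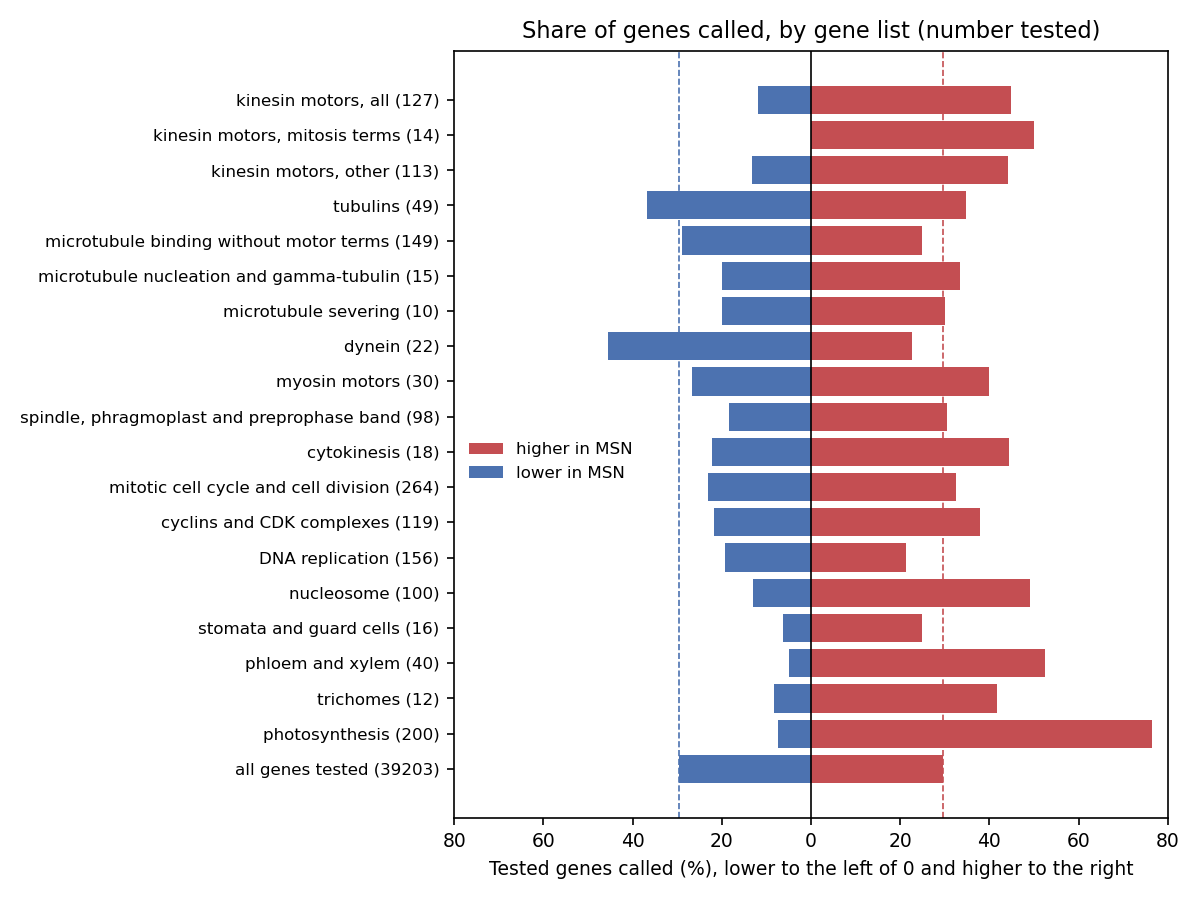
Share of tested genes higher in MSN (right of 0) and lower in MSN (left of 0) for the kinesin motors and the other gene lists, with the number tested in brackets; dashed lines mark the shares over all 39203 genes tested, 29.6% higher and 29.7% lower. Kinesins stand at 44.9% higher and 11.8% lower, and photosynthesis genes have the largest higher share of the lists drawn.

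Lists for cell types of the leaf were defined by GO terms for the development of those cells. They are set here beside the shares over all genes tested, 29.6% higher and 29.7% lower. Phloem and xylem are the transport tissues of the vein. Genes with terms for their development were higher in 21 (52.5%) and lower in 2 (5%) of 40 tested (median 0.82). All 47 genes of that list summed to 297 to 322 CPM in MSN and 214 to 221 CPM in control. Trichome genes were higher in 5 (41.7%) and lower in 1 (8.33%) of 12, at 144 to 155 CPM in MSN and 128 to 130 CPM in control. Genes for stomata and guard cells were higher in 4 (25%) and lower in 1 (6.25%) of 16, both under the shares of all genes tested. They stood at 63.7 to 66.4 CPM in MSN and 69.7 to 78.1 CPM in control, so their sum ran against their count. No gene of these lists was at 0 in all libraries. The part of a shift in cell types in the motor values was not tested.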

How the data were processed

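Per the labels' protocols, messenger RNA was taken with oligo(dT) beads out of 1 μg of RNA from 0.1 g of leaf and cut to about 200 bp. Each gene has, per the file headers, a raw count and an FPKM value in every library of the deposited table. The authors' FPKM are relative to gene length and library size. The deposited counts are whole numbers with a different total in each library, and no header or label records a scaling of them. The submitters' processing notes list DESeq2 1.34.0 and R 4.1.2 without saying what each did. For the aligner, counter, strand, build and annotation the sources used here give nothing, and coordinates are those of the table. A reference gene table matched 0 of the 129 members and was not used.

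Groups came from the sample titles. Counts of all 6 libraries were tested with the quasi-likelihood test of edgeR 4.0.16 under R 4.3.3 (TMM scaling, filterByExpr), 2-sided, adjusted over the 39203 genes tested. The script was tested on simulated data. Standard errors were derived from the F statistic. Of the counts between 1 and 12 in a library, 17.7 to 19.0% were 4 and 10.0 to 12.3% were 8, against 8.27 to 9.42% for 3 and 8.17 to 9.15% for 5. By assumption, 1 event was taken as 4 counts, although most small counts are not multiples of 4; intervals rest on this and cover counting error only. Alternatives were DESeq2 1.42.0, other scalings, no filter, counts divided by 4, limma 3.58.1 on log2(FPKM + 0.1) and log2(FPKM + 1), the replicate number as a block, and leaving out each library.

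The members and the 16 comparison lists, defined by GO terms, were chosen with earlier results of these data known. Lists overlap. Named genes were the 6 largest rises and 4 largest falls with separate groups among called members, with and without mitosis terms, and the 6 members of highest FPKM. Others are named as members of a role group or as chosen after their values were seen.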

Additional observations from a re-analysis of the deposited data

How the results depend on the processing

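Members higher in MSN numbered 57 and ran from 50 to 62 over the alternatives, and lower members from 12 to 16. Of the 72 called members, 62 to 72 were also called under each alternative, all in the same direction: 71 with DESeq2, 68 with the replicate block, 67 on counts divided by 4, 62 with either limma fit and without MSN replicate 1, and 64 without MSN replicate 2 or control replicate 3. None of the 72 changed sign under any alternative, and 13 of the 55 members that did not pass changed sign under at least 1. Members with mitosis terms lower in MSN numbered 0, but 1 with DESeq2, with counts divided by 4, with RLE size factors and with the replicate block, 3 with wider division terms, and 0 to 1 when a library was left out. The median log2 fold change of members, 0.47, was 0.54 with DESeq2, 0.39 on counts divided by 4, 0.55 with no filter, 0.53 with the replicate block, 0.38 and 0.11 on log2(FPKM + 0.1) and log2(FPKM + 1), 0.41 for members with the kinesin complex term, and 0.39 to 0.56 when a library was left out. A pseudocount of 1 shrinks the values of low genes by construction; the cause of the other shifts was not tested. Replicate numbers are shared by the groups. Same-numbered libraries correlated at 0.0145 to 0.0242 in their deviations from the group means, other pairs at -0.0205 to 0.00551. Each library thus correlated best with its own number. Values this small cannot tell whether same-numbered libraries shared more than the number. The block moved the calls to 55 higher and 15 lower. List medians on log2(FPKM + 1) were 0.03 for microtubule binding, -0.13 for dynein, 0.08 for spindle, 0.07 for mitotic, 0.11 for cyclin, 0.20 for nucleosome, 0.12 for stomata, 0.21 for phloem and xylem, 0.09 for trichome and 0.55 for photosynthesis genes, and 0.67 for phloem and xylem on log2(FPKM + 0.1). DESeq2 and the fit with no filter both gave 0.17 for mitotic, 0.41 for cyclin, 0.45 for stomata and 1.02 for phloem and xylem genes. Counts divided by 4 gave -0.54 for dynein, 0.11 for spindle, 0.10 for mitotic and 0.58 for trichome genes. Leaving out a library gave 0.05 to 0.13 for nucleation, -0.39 to -0.10 for dynein, 0.12 to 0.21 for spindle, 0.15 to 0.18 for mitotic (0.18 also with tubulin genes not counted, added after the data were seen), 0.30 to 0.43 for cyclin, 0.01 to 0.05 for DNA replication, 0.81 to 0.89 for phloem and xylem and 0.08 to 0.40 for trichome genes. The dynein median was -0.10 without MSN replicate 2 and -0.12 without control replicate 3; the trichome median was 0.40 without MSN replicate 2 and 0.08 without MSN replicate 3. Of the genes named by rule, GLYMA_09G136400, GLYMA_12G191000 and GLYMA_10G096900, all with few counts, lost their call in 4, 4 and 5 of 13 alternatives. None of these genes was tested on counts divided by 4. Under 1 CPM, 28 of 38 tested members did not pass; the cause was not tested.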
